A study of Mus musculus with 18 samples.

Results

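Tenascin C (Tnc), periostin (Postn), SPARC (Sparc), thrombospondin 2 (Thbs2), fibronectin (Fn1), biglycan (Bgn), decorin (Dcn) and lumican (Lum) were followed in mouse heart under a cardiac-specific tumour necrosis factor alpha (TNF) transgene. They were the 8 genes, of 10 matricellular and adhesive matrix genes sought by symbol in the platform annotation, that had a probe set naming that gene alone, out of 8251 genes with such a probe set. The remaining genes were osteopontin (Spp1), which the annotation used here did not name, and thrombospondin 1 (Thbs1), whose only probe set was shared with Pald1. Neither was analysed here. Tnc and Bgn each had a second probe set, giving 10 probe sets, of which 9 passed the filter on low signal. The Tnc probe set 162362_f_at did not pass.

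Total RNA of heart had been hybridised to Affymetrix U74Av2 oligonucleotide arrays, 1 array a sample, in a study of heart failure that set compensated hypertrophy beside dilated failure. FVB hearts of 3 weeks served as controls, with 5 distinct arrays (2 labelled female, 3 labelled male). The transgenic hearts, labelled TNFTG or TNF TG, were of 3 weeks (3 female and 3 male arrays), of 13 weeks (3 male arrays) and of 40 weeks (3 female arrays). No FVB heart was older than 3 weeks, and the later ages differ in sex, so age, sex and transgene cannot all be told apart. The labels call the transgene cardiac-specific and do not name its promoter, the line, the strain of the transgenic mice or whether animals were pooled. Replicates are arrays of 1 label, which may or may not be separate animals.

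Matricellular proteins are secreted into the matrix but act mainly as signals between matrix and cells, through integrins and other receptors. Tenascin C, periostin, SPARC and the thrombospondins are known to be scarce in the healthy adult heart and to be induced by injury, pressure load and inflammation, largely in fibroblasts. Fibronectin is an adhesive glycoprotein on which cells and other matrix proteins assemble. Biglycan, decorin and lumican are small leucine-rich proteoglycans that bind collagen and shape its fibrils. In these bulk samples, fewer cells of a type and less RNA per cell cannot be told apart.

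The transgene and the arrays were checked first. Tnf signal was 43.9 ± 45.8 (SD, n = 5) in FVB hearts and 9404 ± 2170 (SD, n = 6), 8692 ± 1865 (SD, n = 3) and 10264 ± 1678 (SD, n = 3) in transgenic hearts of 3, 13 and 40 weeks. The heart label was borne out by cardiomyocyte genes, whose summed signal over 9 genes was 204481 to 334158 in FVB and 107010 to 216837 in transgenic hearts. FVB female columns 1 and 2 hold identical values and were counted as 1 array, which stood apart from the rest (Spearman correlation 0.775 to 0.856 with the other arrays, against 0.956 to 0.964 among the other FVB arrays). The arrays labelled FVB male 1 and 2 carried signal of Xist, a transcript of female cells, so their sex label is in doubt. These 3 arrays are called the doubted FVB arrays, and results are given without them where that changes a call. Eif2s3y, a transcript of the Y chromosome, read 67.4 to 544.9 on arrays labelled FVB male and 40.9 to 115.3 on those labelled FVB female. On transgenic arrays of 3 weeks it read 441.4 to 484.4 in males and 7.6 to 30.8 in females. RNA integrity was read from the Actb control probe sets. Their 3' over 5' quotient averaged 1.71 (SD 0.26, n = 5) on FVB and 1.26 (SD 0.10, n = 6) on transgenic arrays of 3 weeks, and a two-sided exact permutation test gave p = 0.0043. The quotient was 1.23 to 1.48 at 13 weeks and 1.39 to 1.77 at 40 weeks. For Gapdh the same quotient was 1.06 (SD 0.08, n = 5) on FVB and 1.005 (SD 0.09, n = 6) on transgenic arrays of 3 weeks (two-sided exact permutation p = 0.29). The part of RNA integrity in the results was not tested.

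Promoter sequence is shown for the 3 genes that rose most and for Thbs2, which fell, so that the genes that moved can be compared at their start sites. The RefSeq promoter table (GRCm38.p6) held 6 of the 10 genes sought. Each window is the 250 bases before the outermost annotated start site, printed 5' to 3' on the gene's strand. Tnc is at chr4:64047016-64047265 (minus strand), Postn at chr3:54359017-54359266 (plus strand), Bgn at chrX:73483351-73483600 (plus strand) and Thbs2 at chr17:14694263-14694512 (minus strand). Capitals mark matches, on either strand, to AP-1 (TGANTCA), the TATA box (TATAAA), the GC box (GGGCGG), NF-kB or the CArG box.
Tnc: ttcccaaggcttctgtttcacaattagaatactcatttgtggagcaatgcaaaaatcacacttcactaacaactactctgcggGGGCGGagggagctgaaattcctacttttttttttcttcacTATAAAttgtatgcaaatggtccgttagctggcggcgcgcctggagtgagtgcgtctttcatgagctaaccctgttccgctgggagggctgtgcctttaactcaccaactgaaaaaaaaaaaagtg
Postn: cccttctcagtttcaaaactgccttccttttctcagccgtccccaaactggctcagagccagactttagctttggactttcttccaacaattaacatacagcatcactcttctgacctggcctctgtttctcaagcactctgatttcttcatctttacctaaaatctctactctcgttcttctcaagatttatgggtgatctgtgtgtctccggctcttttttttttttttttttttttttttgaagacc
Bgn: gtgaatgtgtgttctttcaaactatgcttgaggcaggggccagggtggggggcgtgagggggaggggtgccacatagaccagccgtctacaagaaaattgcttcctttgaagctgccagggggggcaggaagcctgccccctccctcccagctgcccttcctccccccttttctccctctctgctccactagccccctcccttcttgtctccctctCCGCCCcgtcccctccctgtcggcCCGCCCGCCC
Thbs2: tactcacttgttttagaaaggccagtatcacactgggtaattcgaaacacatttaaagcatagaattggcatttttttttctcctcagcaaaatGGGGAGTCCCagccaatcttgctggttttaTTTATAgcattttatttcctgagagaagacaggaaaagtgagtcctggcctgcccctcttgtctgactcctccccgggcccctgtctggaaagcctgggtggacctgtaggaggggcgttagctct
The Tnc window held a TATA box 126 bases and a GC box 167 bases before the start site, and the Bgn window held 3 GC boxes, of which the 2 nearest the start overlap. The Thbs2 window held an NF-kB match 156 bases and a TATA box 126 bases before the start, and the Postn window held none of these motifs. Over all 32851 promoters of the table, the share with a match in the same window was 6.75% for AP-1, 3.9% for NF-kB, 1.47% for the CArG box, 12.4% for the TATA box and 32.7% for the GC box. A match is a stretch of letters and not evidence of binding, and the start site used in these hearts was not measured.

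At 3 weeks the transgenic hearts had more Tnc, Postn, Bgn and Fn1 transcript and less Dcn and Thbs2 than FVB hearts, while Sparc and Lum did not pass the test. Of the 8 genes, 4 were higher and 2 lower at a limma adjusted p under 0.05. Over all 7453 probe sets tested, 24.7% were higher and 21.9% lower, so the count of members that fell was near the background share and the count that rose was above it. The genes were few and were chosen with earlier results of these data known, so these counts do not show enrichment. The median log2 difference of the 8 genes was 0.34, against -0.0065 over all probe sets tested. Without the 3 doubted FVB arrays, 3 genes were higher (Tnc, Postn and Bgn) and 1 lower (Dcn), with 35.6% of all probe sets called in either direction.

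**Figure D1:**
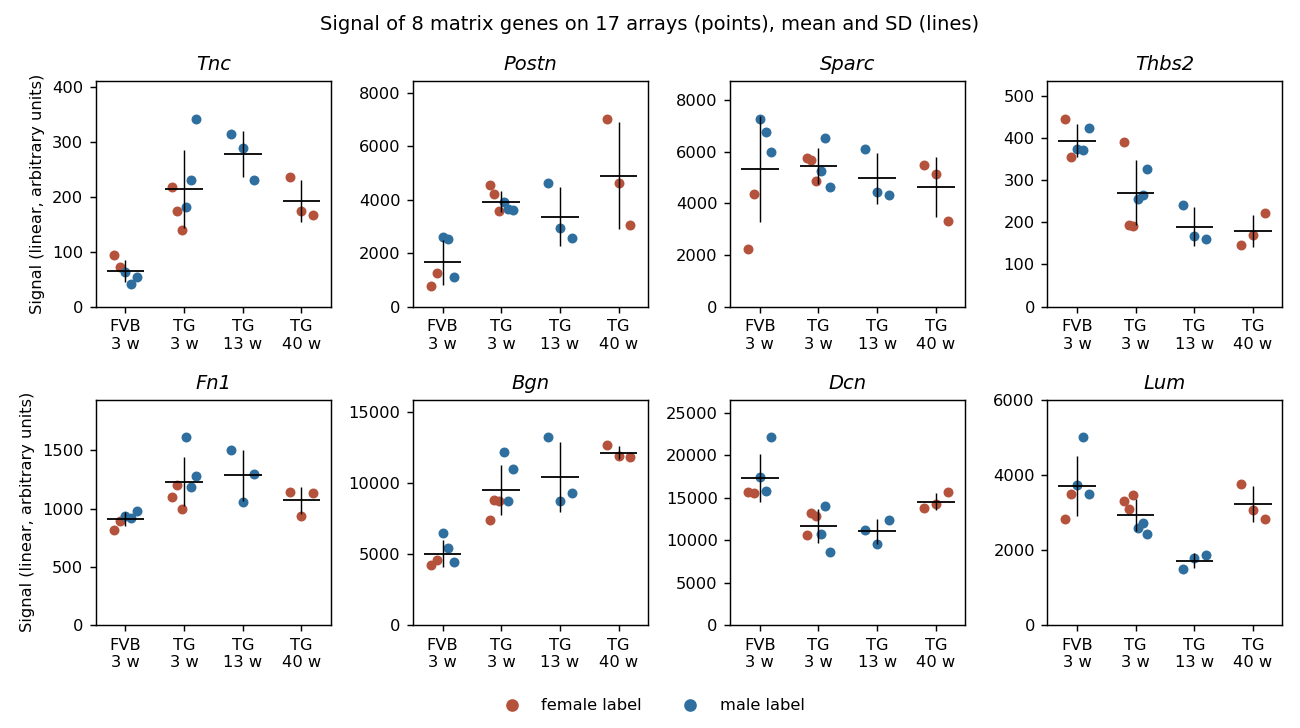
Probe set signal (vertical axis, linear, arbitrary units, from 0) of each of the 8 genes on the 17 distinct arrays, by group (FVB of 3 weeks, transgenic of 3, 13 and 40 weeks). Points are arrays coloured by the labelled sex, and lines are the mean and SD; Tnc, Postn, Bgn and Fn1 lie higher on the transgenic arrays of 3 weeks than on FVB arrays, and Lum is lowest on the 3 arrays of 13 weeks.

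Tenascin C, a hexameric glycoprotein of remodelling tissue that loosens cell adhesion, showed the largest difference of the 8. Its FVB signals (probe set 101993_at) were 94.4 and 72.1 on the female arrays and 62.9, 40.4 and 53.7 on the male arrays. In transgenic hearts of 3 weeks the lowest signal was 139.4, the median 200.3 and the highest 342.7. Every transgenic array was above every FVB array. The difference was 3.11-fold (log2 1.64, SE 0.19, limma adjusted p = 3.7e-06). Since 1 FVB array lay at the floor, the true fold could be larger. Raising the floor on low signals to the 40th percentile gave a log2 difference of 0.85, still called. That floor lay above every FVB signal of this probe set, so the size of this difference depends on the floor. The filter on low signal used the mean over all arrays, so the transgenic signals helped Tnc to pass it. The other Tnc probe set had signals of 4.6 to 58.1 in FVB and 38.3 to 97.5 in transgenic hearts of 3 weeks and was not tested.

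Periostin, which cross-links collagen and marks activated fibroblasts, was next. Its FVB signals (92593_at) were 777 and 1252 on the female arrays and 2590, 2547 and 1091 on the male arrays. The transgenic arrays of 3 weeks ranged from 3567 to 4542, with a median of 3782. The FVB arrays fell into a lower set of 3 and a higher pair, FVB male 1 and 2, but none reached the transgenic range. The difference was 2.83-fold (log2 1.50, SE 0.26, limma adjusted p = 0.00023). Without the 3 doubted arrays the log2 difference was 1.74 (adjusted p = 0.00036).

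Biglycan, a proteoglycan that also signals through Toll-like receptors when released, rose 1.92-fold (log2 0.94, SE 0.15, limma adjusted p = 9.7e-05). Its brighter probe set, 96049_at, read 4219 and 4564 on FVB female arrays and 6462, 5449 and 4431 on FVB male arrays. The transgenic arrays read 7414 at the lowest, 8783 at the median and 12208 at the highest, all above the FVB arrays. The dimmer Bgn probe set, 162347_f_at, did not follow: it was at 1083 to 1364 in FVB and 1001 to 1606 in transgenic hearts (log2 0.07, SE 0.16, adjusted p = 0.746). With the mean of both probe sets the log2 difference was 0.51 (adjusted p = 0.0072). The Bgn difference therefore rests on 96049_at.

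Fibronectin rose by less. Its signals (92852_at) were 818.1, 896.8, 934.9, 922.6 and 978.1 on the FVB arrays and 1000.1 to 1613.9 on the transgenic arrays of 3 weeks (median 1191.2). The groups did not overlap, but the gap between the highest FVB and the lowest transgenic array was small against the spread of the transgenic arrays. The difference was 1.35-fold (log2 0.43, SE 0.13, limma adjusted p = 0.014). It was not called without the 3 doubted FVB arrays (log2 0.38, adjusted p = 0.13) or with array weights (log2 0.45, adjusted p = 0.072).

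Decorin, a collagen-binding proteoglycan that sequesters TGF-beta, fell. Its signals (93534_at) were 15700 and 15499 on FVB female arrays and 17440, 15735 and 22111 on FVB male arrays. The transgenic arrays of 3 weeks read from 8620 to 14050, with a median of 11778, all below the FVB arrays. Decorin was 1.47-fold lower (log2 -0.55, SE 0.15, limma adjusted p = 0.0066). With quantile normalisation the log2 difference was -0.24 and was not called (adjusted p = 0.078), while without the 3 doubted FVB arrays it was -0.69 (adjusted p = 0.015).

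Thrombospondin 2, an inhibitor of angiogenesis, was 1.51-fold lower (log2 -0.59, SE 0.20, limma adjusted p = 0.023). Its signals (94930_at) were 446.4, 354.4, 373.6, 372.5 and 425 in FVB and 191.9 to 390.3 in transgenic hearts (median 259.8). One transgenic array, female 1, lay inside the FVB range and the other 5 lay below it. The call did not hold without the FVB female array that stands apart (log2 -0.51, adjusted p = 0.086), without transgenic female 2 (-0.51, adjusted p = 0.056), without transgenic female 3 (-0.50, adjusted p = 0.060), without the 3 doubted FVB arrays (-0.57, adjusted p = 0.13) or with array weights (-0.64, adjusted p = 0.085).

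Sparc and Lum did not pass. SPARC, a collagen chaperone, had FVB signals (97160_at) of 2228 and 4338 on the female arrays and 7274, 6761 and 5987 on the male arrays. The transgenic arrays of 3 weeks lay between 4611 and 6533, inside the FVB range (log2 difference 0.25, 95% interval -0.15 to 0.65, limma adjusted p = 0.296). The FVB array that stands apart held the lowest value, and without it the log2 difference was 0.01 (adjusted p = 0.972). Without the other FVB female array, replicate 3, it was 0.49 and was called (adjusted p = 0.036). Lumican (93353_at) read 2840, 3502, 3723, 5012 and 3505 in FVB and 2433 to 3476 in transgenic hearts, with overlap (log2 difference -0.29, 95% interval -0.58 to -0.0066, adjusted p = 0.086). That p misses the threshold and does not show that lumican was equal in both.

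**Figure D2:**
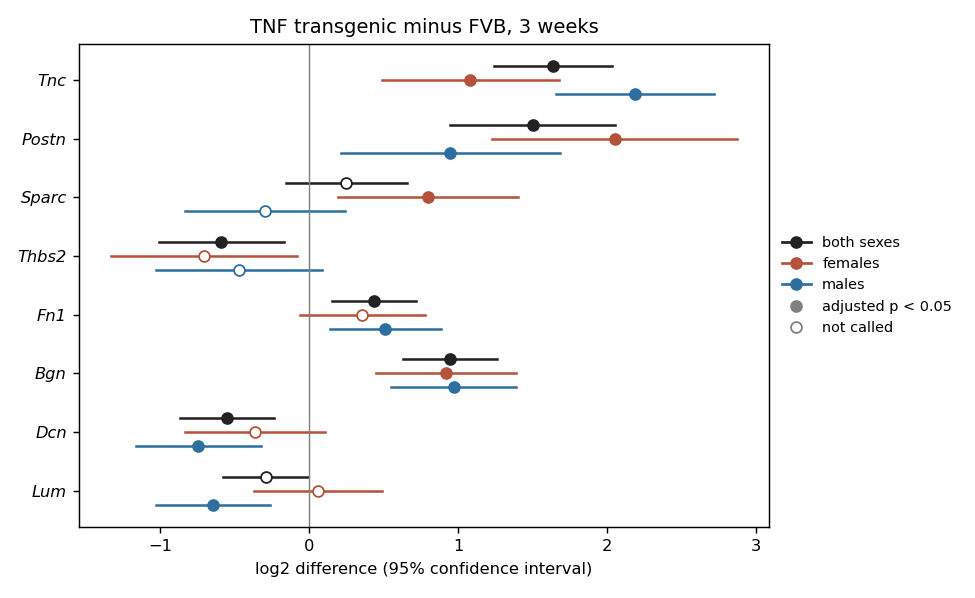
Log2 difference of TNF transgenic minus FVB hearts of 3 weeks (horizontal axis) with its 95% confidence interval, for each gene over both sexes and within the labelled females and males; filled points passed a limma adjusted p of 0.05. Bgn, Tnc and Postn are filled in all 3 comparisons, and Sparc and Lum point to opposite sides in females and males.

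Within the labelled sexes, all genes but Sparc and Lum differed from FVB in the same direction in females and males. In females, with 2 FVB arrays, 4 of 8 genes were higher (Tnc, Postn, Bgn and Sparc) and 0 lower, against 19.4% of all probe sets higher and 15.3% lower. Postn differed most, by 2.05 on the log2 scale (SE 0.39, limma adjusted p = 0.0011), followed by Tnc at 1.08 (SE 0.28, adjusted p = 0.0085) and Bgn at 0.92 (SE 0.22, adjusted p = 0.0056). Sparc was at 0.80 (SE 0.28, adjusted p = 0.040). The call was lost, at 0.32, without the FVB array that stands apart and without the 3 doubted FVB arrays. Both fits leave FVB female 3 as the only FVB female. The Sparc call was also lost without transgenic female 1 (0.75, adjusted p = 0.098), female 2 (0.76, adjusted p = 0.082) or female 3 (0.88, adjusted p = 0.057). Thbs2 was not called (-0.71, adjusted p = 0.072) but was without transgenic female 1 (-1.05, adjusted p = 0.0096). The Tnc call was lost without FVB female 3 (0.89, adjusted p = 0.052). It was also lost with the floor at the 40th percentile (0.61, adjusted p = 0.072), with array weights (0.99, adjusted p = 0.17) and with only the groups compared (1.08, adjusted p = 0.052). The Bgn call was lost with the mean over its probe sets (0.47, adjusted p = 0.087) and with array weights (0.94, adjusted p = 0.10). With array weights the female count was 1 gene and with only the groups compared in the fit it was 2, while calls over all probe sets went from 34.7% to 9.38% and 13.6%.

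In males 4 of 8 genes were higher (Tnc, Postn, Bgn and Fn1) and 2 lower (Dcn and Lum), against 16.9% and 12.8% of all probe sets. Tnc differed by 2.19 (SE 0.25, limma adjusted p = 6.0e-06), with FVB male arrays at 40.4 to 62.9 and transgenic male arrays at 182 to 342.7. Postn was at 0.95 (SE 0.35, adjusted p = 0.04998), and 12 of 28 alternatives lost the call. Without FVB male 3, which leaves FVB male 1 and 2 as the only FVB males, Postn was at 0.54 (adjusted p = 0.27), and without the doubted FVB arrays it was at 1.77 (adjusted p = 0.0058). Fn1, at 0.51 (adjusted p = 0.038), lost it in 8 of 28, among them leaving out any 1 FVB male or transgenic male 1 or 3 (0.38 to 0.55, adjusted p = 0.062 to 0.16). Another was the fit without the 3 doubted FVB arrays, which leaves FVB male 3 as the only FVB male (0.46). Dcn fell by 0.74 (adjusted p = 0.0093), a call lost without FVB male 3 (-0.60, adjusted p = 0.056) and without transgenic male 3 (-0.57, adjusted p = 0.056). Lum fell by 0.65 (adjusted p = 0.012), with 3505 to 5012 on FVB and 2433 to 2713 on transgenic male arrays. The Lum call was lost without FVB male 2 (-0.49, adjusted p = 0.073) and without the doubted FVB arrays (-0.44, adjusted p = 0.19). The count of 6 became 3 without FVB male 3 and 3 without transgenic male 3, while calls over all probe sets went from 29.7% to 22% and 23.3%.

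The sex difference of the transgene effect was tested as a contrast of its own, female effect minus male effect. None of the 8 genes was called by limma (0% of all probe sets were, and 1228 had an unadjusted p under 0.05), although 4 had an unadjusted p under 0.05: Tnc (log2 -1.11, SE 0.38, adjusted p = 0.19), Postn (1.10, SE 0.52, adjusted p = 0.30), Sparc (1.10, SE 0.38, adjusted p = 0.20) and Lum (0.71, SE 0.27, adjusted p = 0.23). Without FVB female 3, which leaves the array that stands apart as the only FVB female, 2 genes were called, Tnc (-1.30, adjusted p = 0.042) and Sparc (1.58, adjusted p = 0.0096). In that fit 1490 of all 7453 probe sets (20%) were called too, so 2 of 8 is near the share over all probe sets. Without the FVB array that stands apart none was. The FVB male group holds the arrays whose sex label is in doubt, so this contrast does not measure sex alone.

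**Figure D3:**
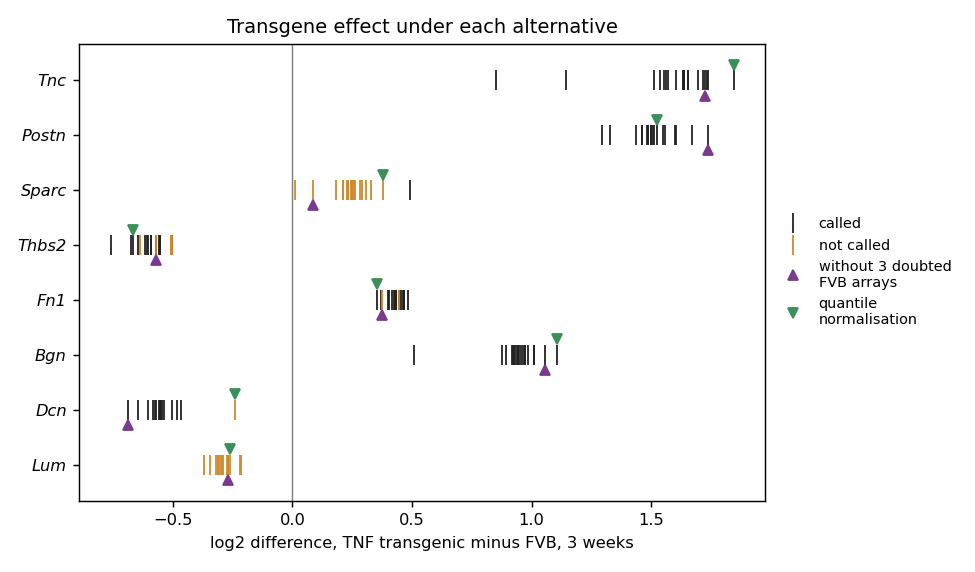
Log2 difference of TNF transgenic minus FVB hearts of 3 weeks (horizontal axis) for each gene under each alternative to the main processing. Ticks are alternatives, dark where the gene was called and orange where it was not, and triangles mark the fits without the 3 doubted FVB arrays (up) and with quantile normalisation (down). Tnc, Postn and Bgn stay called wherever they were tested, and no gene crosses 0. Tnc and Thbs2 were not tested under the stricter filter on brightness.

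In transgenic hearts of later age none of the 8 genes differed from 3 weeks past the threshold. Comparing males of 13 with males of 3 weeks, limma called 0 of the 8 genes, against 0.349% of all probe sets higher and 0.174% lower. In that comparison 2 genes had an unadjusted p under 0.05, as did 642 of all 7453 probe sets. Comparing females of 40 with females of 3 weeks limma again called 0 of 8, against 0.376% higher and 0.295% lower. Here 1 gene had an unadjusted p under 0.05, as did 678 of all 7453 probe sets. With array weights 1 gene was called at 40 weeks, Bgn (log2 0.51, adjusted p = 0.033), in a fit that called 10.8% of all probe sets, so 1 of 8 is near the share over all probe sets. The median log2 difference of the 8 genes was -0.11 at 13 weeks and 0.04 at 40 weeks. These comparisons share the transgenic groups of 3 weeks with the comparison against FVB. A count of 0 does not show that levels were equal, since the 95% intervals allowed log2 differences of up to 0.41 in size for Fn1 at 40 weeks and up to 1.15 for Thbs2 at 13 weeks.

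Lumican had the largest of these differences. Its signals were 2585, 2713 and 2433 on the transgenic male arrays of 3 weeks and 1492, 1796 and 1855 at 13 weeks. All 3 arrays of 13 weeks lay below every other array of the series, and the difference from 3 weeks was -0.59 on the log2 scale (SE 0.18, 95% interval -0.98 to -0.21, limma adjusted p = 0.217). At 40 weeks the female arrays read 3756, 3058 and 2837, which overlapped the 3 weeks females at 3301, 3095 and 3476 (log2 -0.04, 95% interval -0.42 to 0.34, adjusted p = 0.986). The difference between the age changes was 0.55 (SE 0.25, adjusted p = 0.9997).

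Thrombospondin 2 was lower at both later ages without passing the test. It read 242.2, 168 and 159.7 at 13 weeks against 254.4, 265.2 and 327.6 in males of 3 weeks (log2 -0.59, SE 0.26, limma adjusted p = 0.551). At 40 weeks it read 146.7, 170.3 and 221.9 against 390.3, 192.8 and 191.9 in females of 3 weeks (log2 -0.46, SE 0.26, adjusted p = 0.680). The male groups did not overlap and the female groups did. All 6 later arrays were below the FVB minimum of 354.4, but those FVB hearts were of 3 weeks only.

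The small proteoglycans biglycan and decorin were somewhat higher at 40 weeks. Bgn read 12671, 11931 and 11840 at 40 weeks against 7414, 8821 and 8745 in females of 3 weeks, with no overlap (log2 0.55, SE 0.20, limma adjusted p = 0.344). The dimmer Bgn probe set, 162347_f_at, overlapped between these groups (log2 0.14, SE 0.21, adjusted p = 0.929). In males the brighter Bgn probe set, 96049_at, read 13235, 8736 and 9288 at 13 weeks against 12208, 8742 and 10985 at 3 weeks (log2 -0.04, SE 0.20, adjusted p = 0.988). Dcn read 13730, 14257 and 15602 at 40 weeks against 10550, 13162 and 12884 in females of 3 weeks (log2 0.26, SE 0.20, adjusted p = 0.795), again without overlap. Neither gene passed the test at either age.

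The other genes overlapped between ages. Postn was most variable late, with 7040, 4628 and 3036 at 40 weeks and 4623, 2943 and 2549 at 13 weeks. Its log2 differences from 3 weeks were 0.18 (SE 0.35, limma adjusted p = 0.949) and -0.19 (SE 0.35, adjusted p = 0.967). Tnc read 314, 289.2 and 230.9 at 13 weeks and 236.7, 174.3 and 167.5 at 40 weeks, all above the FVB maximum of 94.4. Fn1 (1501.3, 1059.9 and 1297.1, then 1143.5, 937.5 and 1131.7) and Sparc (6101, 4439 and 4335, then 5468, 5123 and 3296) likewise overlapped their groups of 3 weeks. In the test of the difference between both age changes limma called 0 of 8 genes and 0% of all probe sets (214 had an unadjusted p under 0.05), and 1 of the 8 had an unadjusted p under 0.05.

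**Figure D4:**
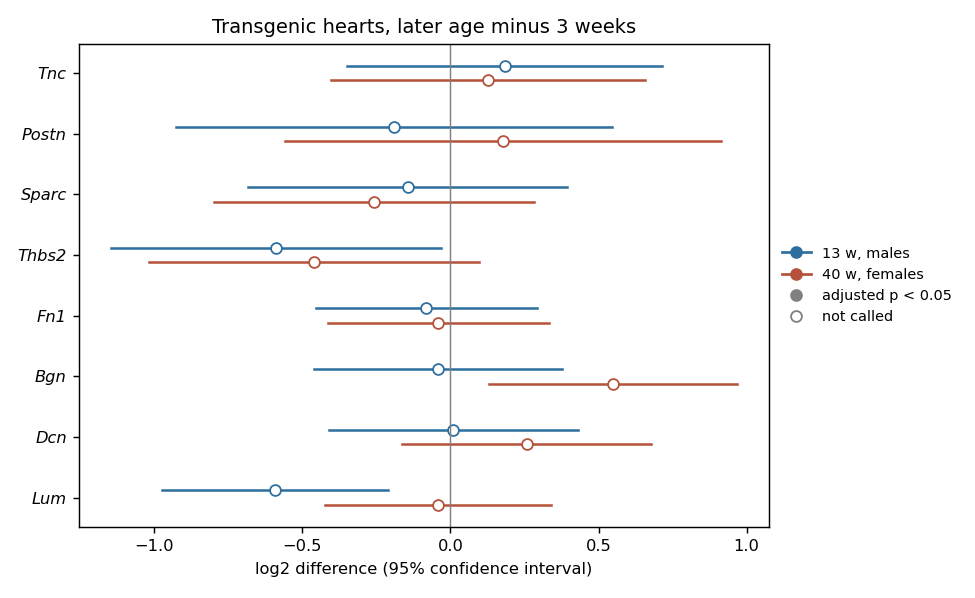
Log2 difference of later transgenic hearts from transgenic hearts of 3 weeks of the same labelled sex (horizontal axis) with its 95% confidence interval, for males of 13 weeks and females of 40 weeks. All points are open, meaning that no gene passed a limma adjusted p of 0.05; Lum and Thbs2 lie farthest below 0 in males and Bgn farthest above 0 in females.

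The order of the groups by mean signal differed between genes. Bgn was lowest in FVB (5025 ± 930, SD, n = 5) and higher in transgenic hearts of 3 weeks (9486 ± 1760, SD, n = 6), 13 weeks (10420 ± 2454, SD, n = 3) and 40 weeks (12147 ± 456, SD, n = 3), with the ranges of the transgenic groups overlapping. Dcn was highest in FVB (17297 ± 2802, SD, n = 5), then at 40 weeks (14530 ± 965, SD, n = 3), with 3 weeks (11656 ± 2045, SD, n = 6) and 13 weeks (11031 ± 1450, SD, n = 3) lowest. The range at 40 weeks overlapped those of FVB and of transgenic hearts of 3 weeks, and the ranges at 3 and 13 weeks overlapped each other. Thbs2 was highest in FVB (394.4 ± 39.2, SD, n = 5) and lower at 3 weeks (270.4 ± 77.6, SD, n = 6), 13 weeks (190.0 ± 45.4, SD, n = 3) and 40 weeks (179.6 ± 38.5, SD, n = 3), with the ranges of all 3 transgenic groups overlapping. Tnc was lowest in FVB (64.7 ± 20.3, SD, n = 5) and overlapped among the transgenic groups, at 214.5 ± 70.7 (SD, n = 6), 278.0 ± 42.7 (SD, n = 3) and 192.8 ± 38.1 (SD, n = 3) at 3, 13 and 40 weeks.

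Dcn and Lum follow each other on chromosome 10 in the RefSeq gene order, followed by the proteoglycan genes Kera (keratocan) and Epyc (epiphycan). The neighbours were scarcely detected: Epyc lay at the floor on all 17 arrays and Kera on 14 of 17. Among the 8 genes the pair with the most similar pattern was Dcn and Lum, whose log2 values, each centred on its own mean, differed by 0.297 on average over the 17 arrays. The next pair was Fn1 and Bgn, at 0.304. Tnc and Thbs2 were farthest apart, at 1.10. The distance of 0.297 was not a close one for Dcn, whose nearest genes outside the 8 lay at 0.14 and whose median over all genes was 0.39. Dcn and Lum also differed at 13 weeks against 3 weeks in males (log2 0.01 and -0.59, neither called). All these distances share the arrays and the split between FVB and transgenic hearts.

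The same distance was taken to the 5692 other genes tested. The nearest to Tnc were Spi1, a transcription factor of myeloid cells (0.22), and Csf2ra, a receptor chain for granulocyte-macrophage colony-stimulating factor (0.24). The nearest to Postn were Marcks, an actin-binding substrate of protein kinase C (0.23), and Cmtm6 (0.26), and the nearest to Bgn were Commd4 (0.17) and Coro1b, an actin regulator (0.18). Dcn was nearest to Eral1 and Gstp1 (0.14 each), Thbs2 to Bcl2l1, a survival factor (0.22), and Timp3, a protease inhibitor bound to matrix (0.24). Lum was nearest to Nfyc (0.21) and Sun2 (0.22), Fn1 to Dcps and Nedd1 (0.14 each), and Sparc to Vdac2 (0.16) and Efnb2 (0.16). The median distance to all genes was 0.79 for Tnc, 0.66 for Postn and 0.36 to 0.53 for the other 6.

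Receptors of matrix proteins, among them those through which these proteins act, were mixed at 3 weeks. Over all 7453 probe sets tested, 24.7% were higher and 21.9% lower at 3 weeks, the background for this and each list below. The median log2 difference of the 19 receptors tested, of 25 on the array, was -0.04. Among them 6 were higher and 3 lower, together near the 46.6% of all probe sets called. Those that rose included the leukocyte integrin chains Itgb7 (1.78, SE 0.22, limma adjusted p = 8.7e-06) and Itga4 (1.48, SE 0.21, adjusted p = 3.2e-05), and Cd47, a thrombospondin receptor (1.29, SE 0.16, adjusted p = 1.2e-05). Cd36, a fatty acid transporter that also binds thrombospondins, fell by 1.31 (SE 0.20, adjusted p = 8.4e-05). The laminin receptor chains Itga7 and Itga3 fell by 0.81 and fell by 0.85.

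Related matricellular genes (16 tested of 21 on the array) had 8 higher and 4 lower, with a median of 0.54. The background shares were 24.7% higher and 21.9% lower. Lgals3, a galectin abundant in macrophages, rose by 5.52, Tgfbi, a relative of periostin, by 2.16 (SE 0.16, limma adjusted p = 2.7e-08) and vitronectin, Vtn, by 1.37. Smoc2, Smoc1 and Spock2, which share a domain family with SPARC, fell by 0.86, fell by 1.10 and fell by 1.88. Of the other small leucine-rich proteoglycans only 3 of 6 on the array were tested: Fmod was higher (0.99, SE 0.37, adjusted p = 0.036), and Ogn (-1.15, SE 0.16, adjusted p = 3.3e-05) and Chad (-0.76, SE 0.21, adjusted p = 0.0070) were lower.

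For the lists that follow, too, the share over all probe sets was 24.7% higher and 21.9% lower. Other matrix glycoproteins and proteoglycans (23 tested of 27) had 6 higher and 8 lower, with a median of -0.13. Ltbp2 (2.36), the basement membrane nidogen Nid2 (1.56) and Mfap4 (0.91) rose, while the fibulins Fbln2 (-1.04) and Fbln1 (-0.81) and the laminin chain Lama2 (-0.72) fell. Collagens (14 tested of 18) had 8 higher and 1 lower, with a median of 0.54, led by Col14a1 (2.22), Col6a3 (0.95) and Col6a1 (0.62), and Col8a1 fell by 1.19. Matrix enzymes and inhibitors (20 tested of 30) had 9 higher and 3 lower, with a median of 0.24. Among them Mmp12 (6.83), Mmp9 (5.50) and the membrane protease Mmp14 (1.34) rose, and Timp3 (-0.75), P4ha2 (-0.52) and Loxl1 (-0.91) fell. TGF-beta signalling (15 tested of 22) had 3 higher and 3 lower, with a median of 0.15: Smad1 (1.10), Smad2 (0.80) and Tgfb1 (1.07) rose, and Bmp4 (-1.04), Smad6 (-0.42) and Tgfbr3 (-0.54) fell. In these 7 lists limma called 0 genes at either later age, and 0 to 5 genes a list had an unadjusted p under 0.05. The most were collagens, 5 of 14 at each age, against 642 of all 7453 probe sets at 13 weeks and 678 at 40 weeks.

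Markers of cells that could carry these transcripts moved with the transgene to different extents. Macrophage markers had 13 higher and 1 lower of 15 tested (median log2 2.85), and their summed signal over 17 genes was 5554 to 6974 in FVB, 49418 to 61549 in transgenic hearts of 3 weeks, 47248 to 65189 at 13 weeks and 44508 to 51373 at 40 weeks. Fibroblast markers were mixed, with 4 higher and 2 lower of 12 (median 0.01), together near the 46.6% of all probe sets called. Among them S100a4, also found in leukocytes, rose by 3.59, Thy1, also found in T cells, by 1.74 and Col1a2 by 0.64, while Tcf21, a fibroblast transcription factor, and Mgp fell by 0.75 and fell by 0.77. Their summed signal over 13 genes was 12998 to 24719 in FVB, 20497 to 25819 at 3 weeks, 15248 to 23343 at 13 weeks and 16765 to 19731 at 40 weeks. The lowest of these sums, 12998, was on the FVB array that stands apart, which also held the lowest Sparc and Postn signals.

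Smooth muscle and pericyte markers had 3 higher and 3 lower of 8, with Acta2 (1.19), Tagln (1.14) and Mcam (1.12) higher and Rgs5 (-1.04), Myh11 (-0.66) and Des (-0.67) lower, and a summed signal over 9 genes of 7293 to 8577 in FVB and 10022 to 12318 in transgenic hearts of 3 weeks. Acta2, a marker of smooth muscle and of myofibroblasts, was lower at 40 than at 3 weeks (log2 -0.93, SE 0.19, limma adjusted p = 0.034). T cell markers were higher in 6 of 6 tested, and all 9 cardiomyocyte genes tested were lower (median -0.99). Endothelial markers had 3 lower of 9, erythroid 2 lower of 3, cartilage, bone and valve 1 lower of 2, atrial 1 higher of 3 and epicardial 0 of 2. The background shares were again 24.7% higher and 21.9% lower, and such short lists do not show a difference from them. The atrial gene that rose was Nppa (1.80, SE 0.33, limma adjusted p = 0.00042). Summed over 4 atrial genes, FVB male 3 read 19266 and the other FVB arrays 2885 to 6731. That array is the only FVB male left in the fits without the doubted FVB arrays. The part of atrial content in the results was not tested. No platelet marker of 4 on the array was bright enough to be tested. No marker on these cell type lists lay at the floor on all 17 arrays, and how far these cells account for the 8 genes was not tested.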

How the data were processed

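Probe set intensities had been deposited by the authors as 1 table of 18 arrays, on a linear scale. Their trimmed mean (2nd to 98th percentile) was 499.2 to 499.9 on every array, so the authors had brought the arrays to 1 level, as the deposited values show, and no further scaling was applied. The software is not given in the sources used here. The number of arrays limits the precision.

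Signals below the 25th percentile (44.675) were set to it and taken as log2. Of 12422 probe sets that were not controls, the 60% with the highest mean (7453) were tested. Symbols came from the platform annotation: 10833 probe sets had 1 symbol, 396 several and 1193 none, and only those with 1 were named. A gene is represented by its brightest probe set. Tests used limma 3.58.1 in R 4.3.3, with a mean for each of 6 groups over 17 distinct arrays and 11 residual degrees of freedom. The effect at 3 weeks is the equal-weight mean of the female and male differences. Adjusted p-values are Benjamini-Hochberg over the 7453 probe sets of a comparison. The fit was tested on simulated data.

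The 10 genes sought and all gene lists were chosen with earlier results of these data known. All measured members are named, and each list gives at most its 3 called genes with the lowest p on either side. The alternatives were quantile normalisation, another floor, an added constant of 50, other filters, array weights, fitting only the groups compared, a replicate block, the mean over probe sets, keeping both identical columns, and leaving out single arrays or the doubted FVB arrays. The titles reuse replicate numbers across groups. Deviations of arrays with the same number correlated at -0.34 to 0.47 over 40 pairs (median 0.054). Those of arrays with different numbers correlated at -0.38 to 0.33 over 80 pairs (median 0.0083). The ranges overlapped and the numbers were not taken to pair samples, with the replicate block fitted as an alternative.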

Additional observations from a re-analysis of the deposited data

How the results depend on the processing

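For the effect at 3 weeks, Postn and Bgn were called under all 28 alternatives and Tnc under the 27 in which it was tested. The filter keeping the brightest 40% of probe sets left Tnc out. No call of the 8 genes in any comparison changed direction. Leaving out single arrays gave 5 to 7 called genes at 3 weeks, 3 to 4 in females, 3 to 6 in males, 0 to 2 for the sex difference (the 2 with 20% of all probe sets called) and 0 to 0 for both age changes and their difference. Calls over all probe sets moved in such fits too. Without transgenic female 1 they went from 46.6% to 40.7% at 3 weeks and from 34.7% to 24.3% in females. Without FVB male 3 they went from 29.7% to 22% in males. In females the count of 4 became 1 with array weights and 2 with only the groups compared, while calls over all probe sets fell from 2587 to 699 and 1013. At 40 weeks array weights called 1 gene in place of 0, and 803 probe sets in place of 50. Of 1554 values of single genes under an alternative, 47 lost a call, 6 gained one and 43 uncalled values changed sign. The causes were not tested. With the replicate block the count at 3 weeks stayed at 6 (4 higher, 2 lower) and that in males at 6, and in females it was 3, since Sparc was lost (log2 0.76, adjusted p = 0.066). That fit called 44.7% of all probe sets at 3 weeks, 29.4% in males and 31% in females. Over all probe sets tested at 3 weeks, quantile normalisation gave 1750 higher and 1882 lower against 1843 and 1631, and no filter 1892 and 2042 with the median moved to -0.13. A dim gene such as Tnc is limited by the floor. Groups of 2 or 3 arrays limit the rest.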
